A study of Mus musculus with 4 samples.

Results

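Apolipoproteins are the protein parts of lipoprotein particles and of free lipid carriers, and 9 of their genes are described here across the cells of mouse lung tumours: Apoa1, Apoa2, Apob, Apoc1, Apoc2, Apoe, Apoh, Apom and Clu. They were taken by gene symbol from the 32289 genes counted in every library, and all 9 were present. Levels are sums of unique molecular identifiers (UMIs, each standing for a captured RNA molecule) over the cells of a class, given as counts per 1e6 UMIs of that class (CPM). Because the 3′ chemistry captures transcript ends with a gene-dependent efficiency, no level is compared between genes.

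The cells came from macroscopic lung tumours of mice whose genotype is the same in all 4 libraries, with the alleles KrasFSF-G12D, Rosa-FSF-CreERT2, p53frt and Hnf4aflox. Tumours had been started by intubation with adenoviral mSPC-FlpO, a virus that carries the Flp recombinase under the surfactant protein C promoter and so is directed to alveolar type 2 cells. Tamoxifen, which activates CreERT2, or vehicle was given 10 weeks after intubation, and cells were collected 2 weeks after that. Vehicle is named ethanol in the sample labels and corn oil in the treatment protocol. For each arm, 1 library was made from cells frozen before depletion and 1 from the rest of the cells after magnetic removal of CD45-positive and CD31-positive cells. The 2 libraries of an arm therefore share a source, and the pair before depletion and the pair after depletion are not independent replicates. The number, age and strain of the mice and the number of tumours pooled are not given in the sources used here. CreERT2 in this design depends on prior Flp activity, so the labels place the allele switch in cells that the virus reached. No test can be made with 1 library a group: a gene is called higher or lower where its level differed at least 2-fold in the same direction in every pair compared and reached 10 CPM in a library of each pair, with 1 CPM added to both levels, and each interval is a 95% interval for counting error only.

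The libraries held 92644997 to 144994771 UMIs, and 6111 to 7358 cells were kept in each. The epithelial-like cells numbered 962 (vehicle) and 995 (labelled tamoxifen) before depletion and 6450 and 7036 after it. Hnf4a, the floxed gene, was not lower in the libraries labelled tamoxifen: its level in epithelial-like cells was 53.3 and 55.1 CPM in the vehicle libraries before and after depletion and 86.5 and 83.2 CPM in those labelled tamoxifen. A 3′ count outside the deleted part does not check a deletion, and the labels do not name the deleted exons. The libraries are therefore called "labelled tamoxifen" throughout, and every direction below compares libraries, not a proven loss of Hnf4a. Epithelial-like cells held all 7 epithelial markers, with a sum of 5534 to 7181 CPM. Of the 5 markers used for C1q macrophages, Pf4 gave nearly all of the signal in them (140.3 and 133 CPM in vehicle, 376 and 379.6 CPM in the libraries labelled tamoxifen), and Pf4 was among the genes that led a tumour state named below. The kept cells of any 2 libraries shared 9 to 17 barcodes.

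Apolipoproteins keep lipid particles soluble and tell enzymes and receptors where to act. Apoe is the ligand by which remnant particles bind receptors of the LDL receptor family, and macrophages secrete it while exporting cholesterol. In healthy animals most of the other genes are known as products of liver and intestine, where HNF4A is a well-known activator of several of them. Clu (clusterin, also called apolipoprotein J) is mainly an extracellular chaperone and is widely made by epithelia under stress.

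Before depletion 6 of the 9 genes fell into 2 patterns, and Apoa2, Apoh and Apom were at most 4.24 CPM in every class with at least 50 cells in both libraries. Epithelial-like cells made up 13.6% and 16.3% of the kept cells (vehicle, then labelled tamoxifen) but held 88.8% and 91.3% of all Apoa1 UMIs, 89.3% and 92.3% of Apob, 88.3% and 87.3% of Apoc1 and 87.6% and 78.1% of Clu. Apoe and Apoc2 lay elsewhere. C1q macrophage-like cells, named from C1qa, C1qb, C1qc, Ms4a7 and Pf4, were 17.4% and 12.5% of cells and held 81.2% and 85.3% of Apoe UMIs and 62.7% and 75.8% of Apoc2 UMIs. Epithelial-like cells held 7.5% and 3.0% of Apoe and 18.5% and 1.3% of Apoc2.

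Apoe reached 12228 CPM in C1q macrophage-like cells of the vehicle library and 17955 CPM in those labelled tamoxifen, above every other class with at least 50 cells in both libraries. Next in the vehicle library came non-classical monocyte-like cells at 1348 CPM and alveolar macrophage-like cells at 1329.9 CPM, whose counting intervals overlapped. B cell-like cells followed at 965 CPM, epithelial-like cells at 862 CPM and fibroblast-like cells at 730.1 CPM. Median Apoe UMIs a cell were 1 in B cell-like and 2 in epithelial-like cells there. The top 10% of cells held 68.9% and 78.6% of their Apoe UMIs, and the source of the B cell-like signal was not tested. In the library labelled tamoxifen the order after non-classical monocyte-like cells (1174 CPM) was fibroblast-like (982 CPM), B cell-like (941 CPM) and alveolar macrophage-like cells (928 CPM), then dendritic-like cells (574 CPM), and epithelial-like cells stood lower, at 276 CPM. T cell-like cells do not normally make the protein and gave 117 and 206 CPM. That signal was uneven, with a median of 0 UMIs, up to 402 and 445 UMIs in a cell and 73.7% and 70.8% of UMIs in the top 10% of cells, and its source was not tested. It is used below as a comparison level for low Apoe values. In the library labelled tamoxifen endothelial-like, neutrophil-like and plasmacytoid dendritic-like cells (126, 186 and 79.5 CPM) lay under it. In vehicle endothelial-like and neutrophil-like cells (229 and 212 CPM) lay above it and plasmacytoid dendritic-like cells (64.7 CPM) under it.

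Apoc2, the cofactor that activates lipoprotein lipase, was highest in 2 myeloid classes. Non-classical monocyte-like cells gave 134 CPM in the vehicle library and 70.7 CPM in the library labelled tamoxifen, and C1q macrophage-like cells gave 63.0 and 81.4 CPM. In the vehicle library the intervals of these 2 classes were apart, and in the other they overlapped. The monocyte cluster scored 0.89 for the non-classical marker list and 0.71 for the classical one, and no class was named classical monocyte. Plac8 and F13a1, listed for classical monocytes, were among its leading genes. Whether it holds both kinds was not tested. Epithelial-like cells came next in the vehicle library at 14.3 CPM, with neutrophil-like cells at 10.7 CPM not distinguishable from them. They were at 0.60 CPM in the library labelled tamoxifen, within the counting interval of T cell-like cells (0.78 CPM).

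Apoc1, an inhibitor of lipoprotein uptake and of cholesteryl ester transfer, is coded beside Apoe and Apoc2 but did not share their cells. Its level was 369 and 261 CPM in epithelial-like cells and only 8.25 and 4.26 CPM in C1q macrophage-like cells, no more than in T cell-like cells (9.72 and 9.36 CPM). Apob, the structural protein of very-low-density and low-density lipoproteins, was at 22.0 and 22.4 CPM in epithelial-like cells and at or under 2.79 CPM in every other class of at least 50 cells. Apoa1, the main protein of high-density lipoprotein, was at 40.9 and 26.0 CPM in epithelial-like cells and at most 3.88 CPM in the other classes. Clu was highest in epithelial-like cells at 2549 and 3030.4 CPM.

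**Figure D1:**
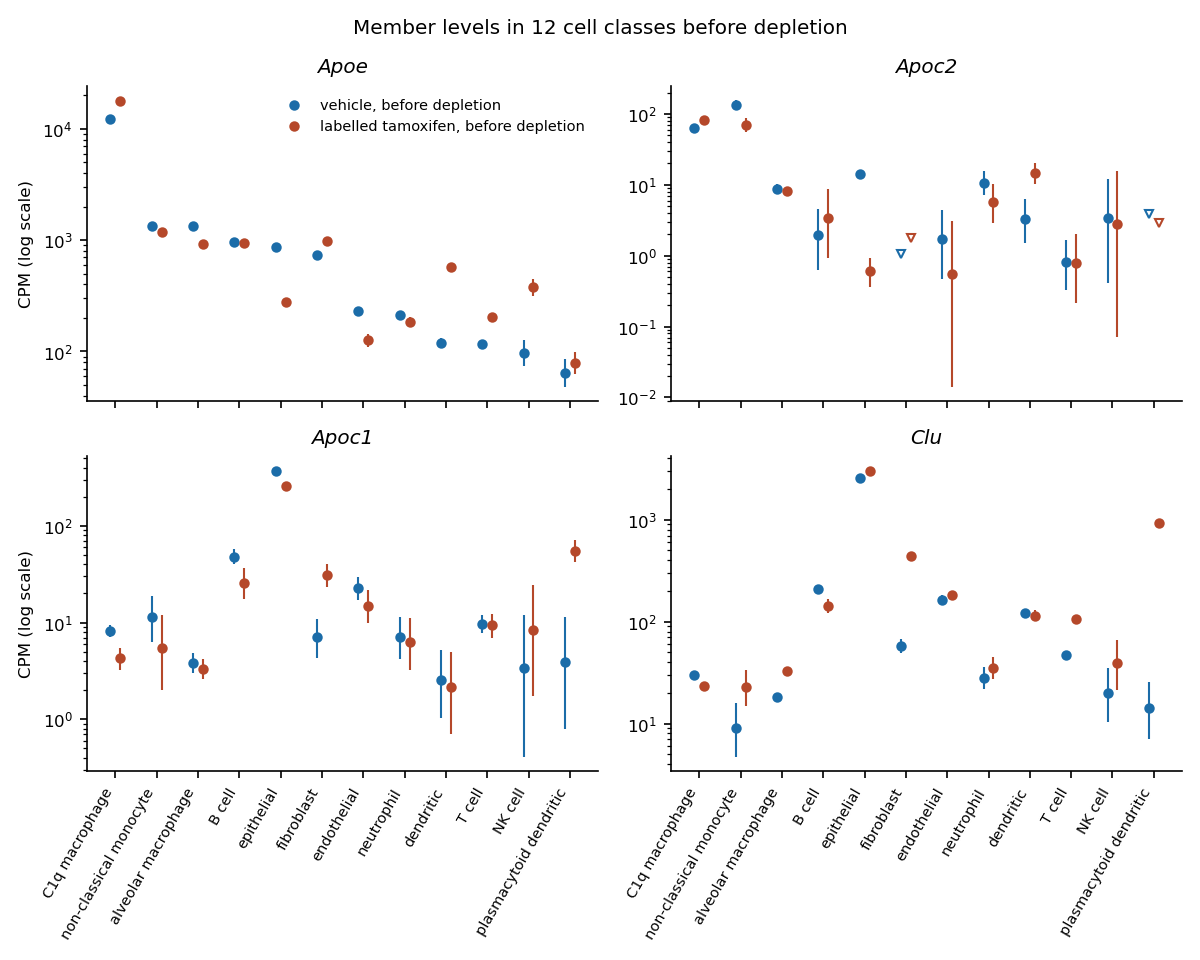
Level of Apoe, Apoc2, Apoc1 and Clu (CPM, log axis) in 12 cell classes of the vehicle library (blue) and the library labelled tamoxifen (red), both before depletion, with classes ordered by Apoe in vehicle. Bars are 95% counting intervals and open triangles mark classes with no UMI, drawn at the limit that a count of 0 allows. C1q macrophage-like cells stand at 12228 and 17955 CPM of Apoe, while Apoc1 and Clu peak in epithelial-like cells.

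Some non-epithelial values of Clu differed strongly between the libraries. Plasmacytoid dendritic-like cells (67 and 73 cells) gave 14.2 CPM of Clu in vehicle and 935 CPM in the library labelled tamoxifen, and 3.88 and 55.2 CPM of Apoc1. The summed level of the 7 epithelial markers in the same cells was 248 and 824 CPM, and its part in the Clu value was not tested. Fibroblast-like cells gave 58.2 and 443 CPM of Clu, with an epithelial marker sum of 166 and 313 CPM. T cell-like cells gave 46.9 and 106 CPM of Clu, with an epithelial marker sum of 161 and 342 CPM. In these 3 classes Clu and the epithelial markers were both higher in the library labelled tamoxifen, but not in all classes. B cell-like cells had less Clu there (211 and 143 CPM) with more of the markers (307 and 347 CPM), and endothelial-like cells had more Clu (164 and 181 CPM) with less of the markers (259.6 and 187 CPM).

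Within epithelial-like cells, Apoe and Apoc2 were lower in both libraries labelled tamoxifen. Of the 6 members that reached 10 CPM in both pairs, these 2 were called lower and none higher, against 0.94% of all 9039 genes tested called lower, 0.387% called higher and 1.33% called in either direction. The median log2 ratio over those 6 members was -0.56 before depletion and -0.89 after it, and over all genes tested -0.04 and 0.01.

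Apoe was at 862 CPM (interval 852 to 873) in vehicle and 276 CPM (271 to 282) in the library labelled tamoxifen before depletion. After depletion it was at 1236 CPM (1231 to 1242) and 329 CPM (326 to 332). Both vehicle libraries lay above both others, by 3.12-fold (3.04 to 3.20) and 3.76-fold (3.72 to 3.80). The share of epithelial-like cells with an Apoe UMI, after each cell was thinned to 2000 UMIs, was 34.6% and 26.0% before depletion and 38.3% and 20.2% after it. The same share in T cell-like cells was 13.6% and 22.1%, at median depths of 5807 and 6060 UMIs a cell against 26385 and 28761 in epithelial-like cells. Without thinning the epithelial-like shares were 78.2% and 81.9% before depletion and 66.3% and 46.1% after it. The order of the arms before depletion thus turned without thinning. With each cell weighted equally, the log2 ratios of Apoe CPM kept their direction, at -1.16 and -1.80 against -1.64 and -1.91 from summed UMIs.

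Apoc2 gave 424 UMIs (14.3 CPM) in vehicle and 19 UMIs (0.60 CPM) in the library labelled tamoxifen before depletion. After depletion it gave 1581 UMIs (11.6 CPM) and 92 UMIs (0.69 CPM). The level was 23.8-fold (15.1 to 39.9) and 16.9-fold (13.7 to 21.1) lower in the libraries labelled tamoxifen, the widest gap of the 9 genes. The signal came from few cells: a single cell of the vehicle library before depletion held 142 Apoc2 UMIs and 1 after depletion held 137, and the highest cells of the libraries labelled tamoxifen held 2 and 11. When each cell was given equal weight, or when cells were chosen by their own markers and not by cluster, Apoc2 was lower in the same direction but under the 10 CPM minimum in a pair.

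The high-density lipoprotein genes did not move as a group. Apoa1 was at 40.9 and 26.0 CPM before depletion (1.57-fold lower in the library labelled tamoxifen, 1.44 to 1.72) and at 60.3 and 22.4 CPM after it (2.69-fold lower, 2.58 to 2.80). It thus passed the 2-fold size rule only in the pair after depletion, where 3 members (Apoe, Apoc2 and Apoa1) were lower and 1.18% of 9156 genes tested were called lower, 0.546% higher and 1.73% either way. In the pair before depletion alone the 2 members called were lower, with 1.39% of genes called lower, 0.59% higher and 1.98% either way. Apom, which carries sphingosine 1-phosphate on those particles, was at 4.24 and 1.01 CPM and then at 4.96 and 1.27 CPM, under the 10 CPM minimum. Its log2 ratios with 1 CPM added were -1.38 and -1.39, and 0 of 13 settings gave the other sign in either pair. Apoa2, another high-density lipoprotein component, stood at 1.51 and 2.90 CPM before depletion and 1.98 and 2.81 CPM after it, also under the minimum and with the vehicle libraries below the others.

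Apob, Apoc1 and Clu differed less. Apob was at 22.0, 21.4, 22.4 and 20.5 CPM in vehicle before and after depletion and labelled tamoxifen before and after depletion, and its fold intervals (0.91 to 1.14 before depletion, 0.99 to 1.10 after it) spanned 1 in both pairs. Its direction changed between processing settings, over log2 ratios of -0.15 to 0.90 before depletion and -0.14 to 0.41 after it. Apoc1 was at 369, 354, 261 and 268 CPM in the same order, 1.41-fold and 1.32-fold lower in the libraries labelled tamoxifen. Clu was at 2549, 2914, 3030.4 and 3757 CPM, 1.19-fold and 1.29-fold higher there. Apoh, the phospholipid-binding beta-2-glycoprotein I, stayed under 3.2 CPM in all 4 libraries (3.19, 2.90, 1.20 and 1.42 CPM). Neither Apoc1 nor Clu differed 2-fold in either pair.

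**Figure D2:**
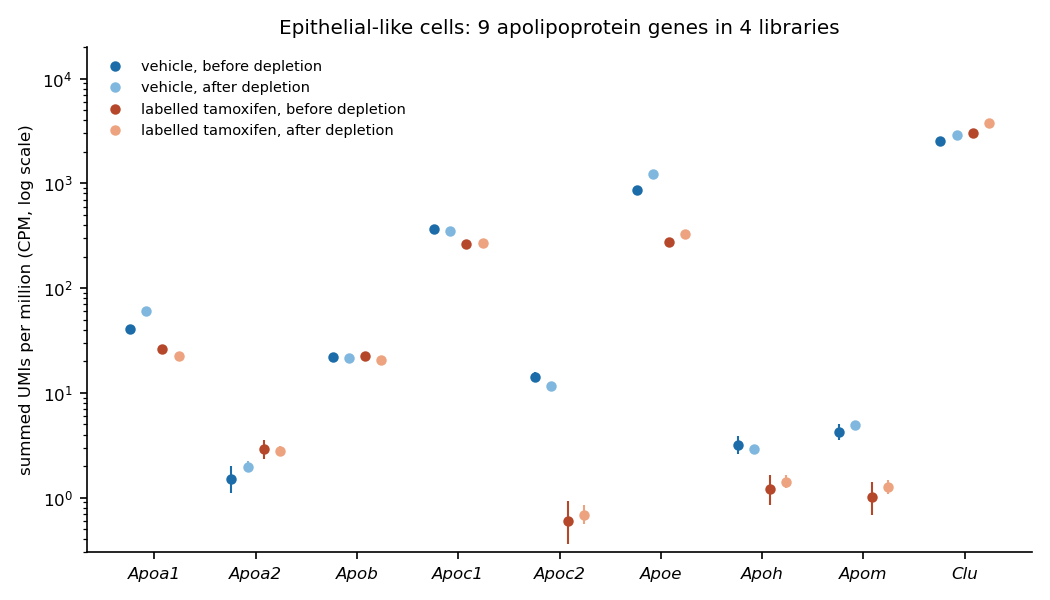
Level of the 9 genes in epithelial-like cells of the 4 libraries (CPM, log axis), 1 point a library, with 95% counting intervals where they are wider than the point. Apoe (862 and 1236 CPM against 276 and 329 CPM) and Apoc2 (14.3 and 11.6 CPM against 0.60 and 0.69 CPM) separate the vehicle libraries (blue) from those labelled tamoxifen (red), while the 4 Apob points lie between 20.5 and 22.4 CPM.

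Apoe, Apoc1 and Apoc2 lie in 1 cluster on chromosome 7 in GRCm38 (GENCODE annotation), all on the minus strand: Apoc2 at 19671579 to 19677941, Apoc1 at 19689481 to 19692660 and Apoe at 19696109 to 19699188. A further gene of the cluster, Apoc4, is on the same strand and ends 141 bases upstream of the start of Apoc2, and 3448 bases separate Apoc1 from Apoe. The annotation also has a transcript that reads through both, so Apoc2 counts may include it. Of the 3 cluster genes, the outer 2 were called lower in epithelial-like cells and the middle one, Apoc1, was not.

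Promoter sequences from RefSeq (GRCm38.p6) were matched by symbol for 7 of the 9 genes. They are shown for the 2 genes called lower and for the 2 epithelial genes Apoa1 and Apob, so that their bases can be compared. Each ends at the base before the first exon in GENCODE, and stretches inside an annotated exon are left out. Capitals mark a match to the nuclear receptor half-site AGGTCA or to the HNF4 core CAAAGNNCA, each searched on both strands in all 250 bases before the RefSeq start, printed or not.
Apoe, minus strand, chr7:19699189-19699438: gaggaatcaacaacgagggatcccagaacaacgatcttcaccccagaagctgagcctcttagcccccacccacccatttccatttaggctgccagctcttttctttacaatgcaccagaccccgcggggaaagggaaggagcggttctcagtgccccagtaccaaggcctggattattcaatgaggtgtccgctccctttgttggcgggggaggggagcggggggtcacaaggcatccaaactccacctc
Apoc2, minus strand, chr7:19677942-19678082: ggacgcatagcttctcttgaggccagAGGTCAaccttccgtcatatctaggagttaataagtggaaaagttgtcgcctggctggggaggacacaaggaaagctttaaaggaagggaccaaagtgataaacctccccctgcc
Apoa1, plus strand, chr9:46228380-46228579: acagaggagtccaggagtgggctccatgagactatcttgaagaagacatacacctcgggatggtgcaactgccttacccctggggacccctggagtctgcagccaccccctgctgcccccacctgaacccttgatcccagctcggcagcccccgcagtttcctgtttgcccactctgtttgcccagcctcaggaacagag
Apob, plus strand, chr12:7977427-7977647: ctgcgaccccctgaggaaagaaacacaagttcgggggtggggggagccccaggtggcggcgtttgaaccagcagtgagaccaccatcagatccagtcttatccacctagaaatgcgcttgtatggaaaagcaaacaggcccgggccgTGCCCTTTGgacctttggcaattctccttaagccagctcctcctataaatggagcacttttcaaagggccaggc
The half-site occurred in the windows of Apoc2 (110 to 115 bases before the start) and Apoh, as in 14.0% of all 32851 promoter windows of that length. The HNF4 core occurred in those of Apob (95 to 103 bases before the RefSeq start, which lies inside the GENCODE exon, on the opposite strand) and Apoh, as in 5.49% of all windows. The 250-base windows of Apoe, Apoa1, Apoa2 and Apom held neither set of letters. A match describes the letters only, and these windows do not cover distal enhancers.

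The epithelial-like cells were split into states by clustering without the 9 genes, and each state is named here by its leading gene. In 7 states both libraries after depletion had at least 50 cells, and these held 92.5% (vehicle) and 91.3% (labelled tamoxifen) of epithelial-like cells. The Cbr2-led state scored highest for the alveolar type 2 list, the Rtkn2-led state for the alveolar type 1 list, the Ctse-led state high for the transitional list, the Adgrl3-led state, with Alb among its leading genes, for the liver-type list, and the Ube2c-led state for cycling genes. The Itih2-led state (with Bpifa1, Dlk1 and Pf4) and the Bex2-led state scored high for none of the lists.

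Most epithelial Apoe in vehicle came from a small part of the cells. The Adgrl3-led state was 13.4% of vehicle epithelial-like cells before depletion and 18.1% after it, and held 53.3% and 59.2% of their Apoe UMIs. In the libraries labelled tamoxifen this state was 1.51% and 1.59% of cells and held 7.5% and 18.2% of Apoe UMIs. There the Itih2-led state, 22.9% and 27.2% of cells (1.46% and 1.83% in vehicle), held the largest share, 29.9% and 36.6%. State sizes and levels within states therefore both differed between the libraries.

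The same exchange of states was seen for the liver-associated genes. The Adgrl3-led state held 83.9% and 83.0% of Apoa1 UMIs and 64.3% and 55.3% of Apob UMIs in vehicle, and the Itih2-led state held 76.0% and 65.5% of Apoa1 and 61.3% and 60.9% of Apob in the libraries labelled tamoxifen. Clu was carried in all 4 libraries by the Ctse-led state, with 58.3%, 54.7%, 44.9% and 52.0% of its UMIs.

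**Figure D3:**
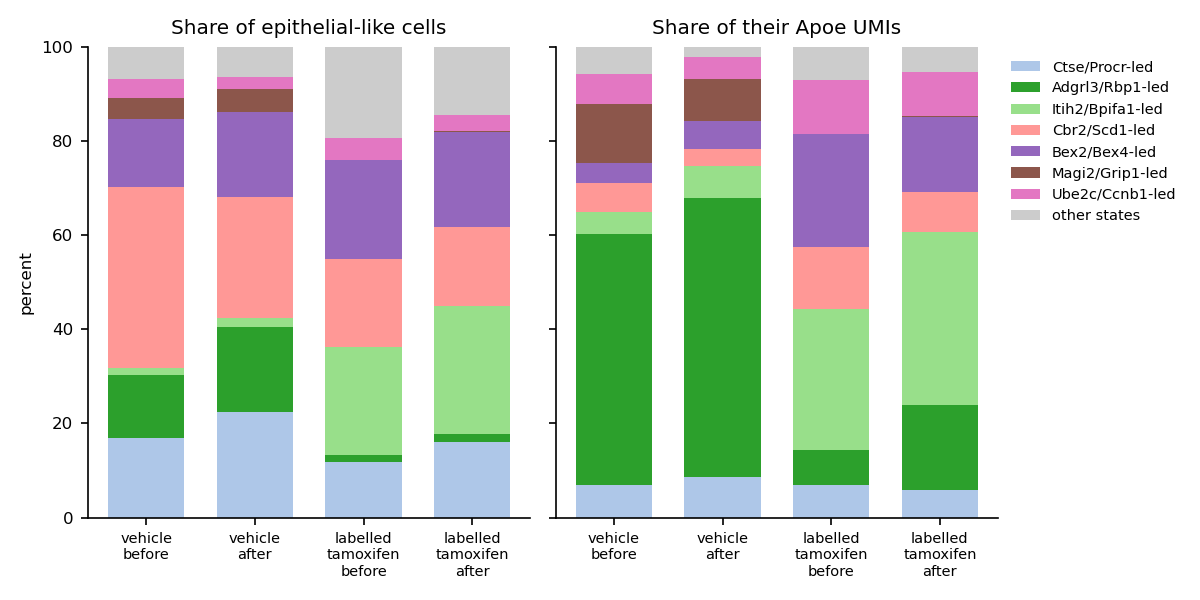
Share of epithelial-like cells (left) and of their Apoe UMIs (right) by epithelial state in the 4 libraries, as stacked percentages. The Adgrl3-led state holds 53.3% and 59.2% of Apoe UMIs in vehicle and 7.5% and 18.2% in the libraries labelled tamoxifen, where the Itih2-led state holds 29.9% and 36.6%.

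Inside single states, Apoe was lower in the library labelled tamoxifen after depletion in 4 of the 7. In the Itih2-led state it was at 4213 CPM in vehicle and 384 CPM in the library labelled tamoxifen (11.0-fold lower, 10.7 to 11.3), over 118 and 1917 cells. In the Ctse-led state it was at 439.6 and 107 CPM (4.12-fold lower), a state where 0.856% of genes tested were called lower. The same state before depletion gave 282 and 135 CPM (2.08-fold lower, against 2.5% of genes called lower). In the cycling Ube2c-led state it was at 1564 and 577 CPM (2.71-fold lower, against 1.47%), and in the Rtkn2-led state at 99.7 and 44.3 CPM (2.25-fold lower, against 1.56%). In the Itih2-led state 2.64% of genes tested were called lower. The number of vehicle cells in that state depended on the clustering. At Leiden resolution 0.3, the state with Itih2, Bpifa1, Dlk1 and Pf4 among its leading genes held 56 vehicle and 1889 tamoxifen-labelled cells after depletion. The fold intervals given for the Itih2-led state do not cover that dependence.

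The other 3 states did not pass the 2-fold size rule for Apoe. The Adgrl3-led state kept a high level in both libraries after depletion, 2744 CPM in vehicle and 1819 CPM in the library labelled tamoxifen (1.51-fold lower, 1.47 to 1.54). In the Bex2-led state Apoe was at 421 and 245 CPM after depletion and at 251 and 291 CPM before it, so the direction differed between the pairs. In the alveolar type 2-like Cbr2-led state it was at 292 and 264 CPM after depletion and at 245 and 306 CPM before it, again in opposite directions. In that state no member was called in either pair, and 0.369% of genes were before depletion and 0.241% after it. Differences between states were not tested.

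Apoc2 was lower in the Ctse-led state (19.4 CPM in vehicle, 0.58 CPM labelled tamoxifen, 33.3-fold, interval 19.7 to 61.2), the Ube2c-led state (13.9 and 1.28 CPM) and the Adgrl3-led state (17.5 and 4.56 CPM, 3.84-fold, against 2.05% of genes called lower there). In the Itih2-led and Bex2-led states vehicle levels were under 10 CPM, at 7.34 and 5.71 CPM, and those of the library labelled tamoxifen were 0.71 and 0.42 CPM. The Cbr2-led state had almost no Apoc2 in either library, with 2 UMIs in vehicle and 1 in the library labelled tamoxifen after depletion. A state rich in Apoe was not always rich in Apoc2: in vehicle after depletion the Itih2-led state had the highest Apoe, while Apoc2 was higher in the Ctse-led and Adgrl3-led states, whose intervals overlapped. Before depletion the vehicle cells of those states were at 8.53 and 34.4 CPM of Apoc2.

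Apob differed in opposite directions between states although its level over all epithelial-like cells hardly differed. It was higher in the library labelled tamoxifen in the alveolar type 1-like Rtkn2-led state (65.6 against 9.32 CPM, 7.04-fold, 4.74 to 10.8, where 2.16% of genes were called higher) and in the Itih2-led state (39.7 against 10.6 CPM, 3.73-fold, where 3.16% were called higher). It was lower in the Bex2-led state (10.8 against 26.8 CPM, 2.47-fold, where 0.573% were called lower) and in the Ube2c-led state (5.81 against 18.0 CPM, 3.09-fold). In the Ctse-led state Apob was at 5.18 against 10.7 CPM, 2.06-fold lower but not called with 1 CPM added. Before depletion Apob there was at 0.22 against 8.69 CPM (1 and 55 UMIs). In the Adgrl3-led state it was at 44.3 CPM in vehicle and 44.0 CPM in the library labelled tamoxifen. Before depletion the Bex2-led state gave 21.1 and 12.8 CPM of Apob, the same direction without reaching 2-fold. The Rtkn2-led cells labelled tamoxifen gave 78.0 CPM before depletion, near the later value. With the 9 genes kept in clustering, a cluster led by Apob and Spink5 held 17 vehicle and 376 tamoxifen-labelled cells after depletion. At Leiden resolution 1, an epithelial state led by Spink5 held 12 and 381. The part of such cells in the state values above was not tested, and the fold intervals do not cover it.

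After depletion Apoa1 was lower in the Adgrl3-led state (187.5 CPM in vehicle and 74.7 CPM labelled tamoxifen, 2.51-fold) and in the Ube2c-led state (86.6 and 31.3 CPM). It was also lower in the Ctse-led state (10.3 and 4.51 CPM). Before depletion Apoa1 was not lower in the Ctse-led state, at 3.16 CPM in vehicle (20 UMIs) and 3.34 CPM labelled tamoxifen (15 UMIs). In the Itih2-led state its levels were 48.1 and 46.8 CPM, and the fold interval (0.86 to 1.23) spanned 1. The Bex2-led state before depletion gave the reverse, 1.41 CPM in vehicle (6 UMIs) and 14.7 CPM in the library labelled tamoxifen, where 1.18% of genes were called higher; after depletion the levels were 6.13 and 6.89 CPM. Apoc1 passed the 2-fold rule in the Itih2-led state (1073 and 320.3 CPM, 3.35-fold) and in no other of these 7. It was at 97.3 and 65.8 CPM in the Ctse-led state and at 577 and 480.1 CPM in the Adgrl3-led state. Apom was lower in the Adgrl3-led state (12.7 and 3.87 CPM) and the Itih2-led state (10.3 and 0.91 CPM).

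Clu had its highest level in the Ctse-led state of every library (6989 and 6523 CPM in vehicle before and after depletion, 9625 and 10907 CPM in those labelled tamoxifen) and its lowest among the 7 states in the Cbr2-led state (565 and 691 CPM after depletion). No state passed 2-fold for Clu. The gap was widest in the Adgrl3-led state (2419 CPM in vehicle and 4544 CPM labelled tamoxifen, 1.88-fold higher), and the Rtkn2-led state went the other way (2794 and 1966 CPM).

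**Figure D4:**
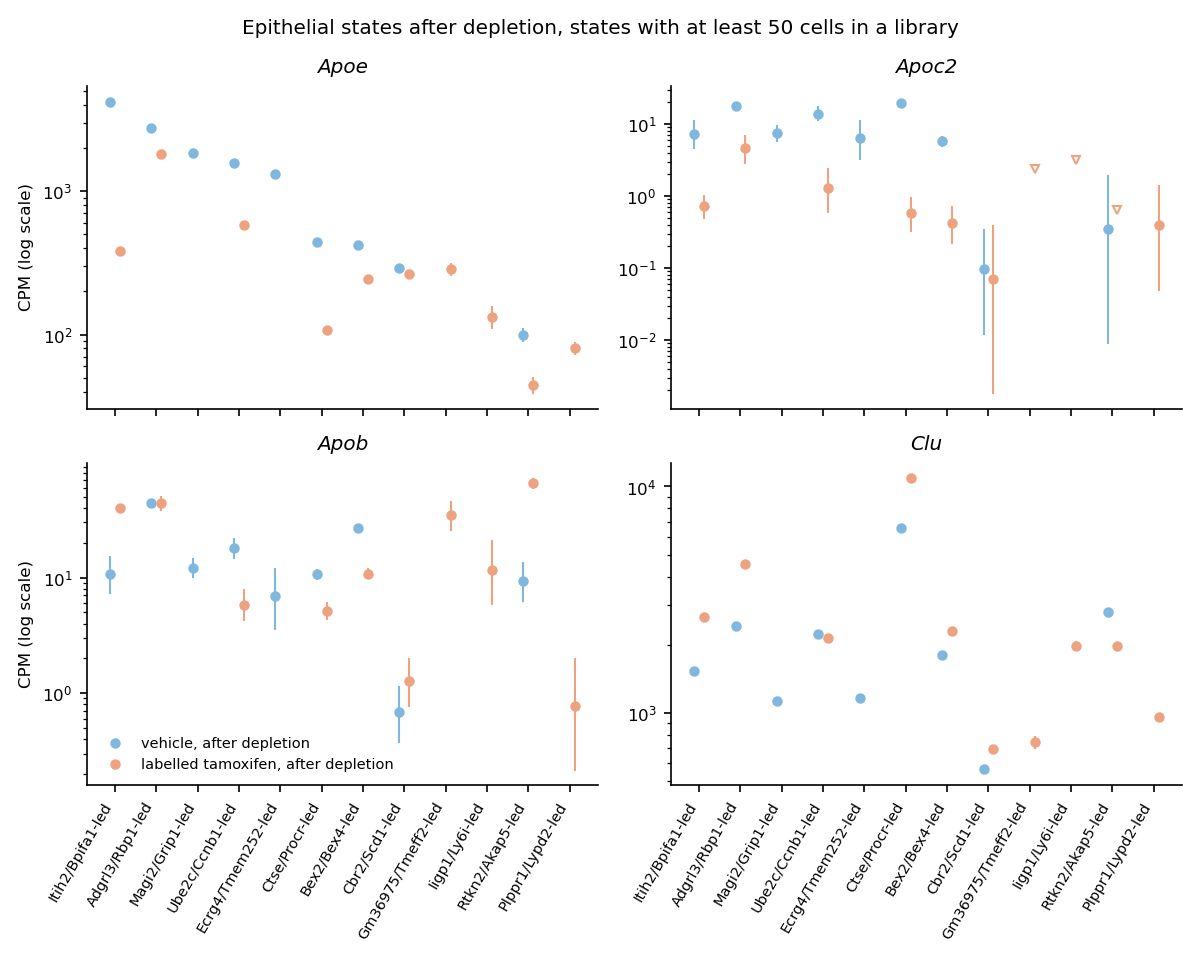
Level of Apoe, Apoc2, Apob and Clu (CPM, log axis) in epithelial states after depletion, for vehicle (light blue) and the library labelled tamoxifen (light red), with 95% counting intervals and open triangles for no UMI at the limit that a count of 0 allows. States are ordered by their highest Apoe, and a state with under 50 cells in a library lacks that point. Apoe of the Itih2-led state is at 4213 CPM in vehicle and 384 CPM labelled tamoxifen, while Apob there is at 10.6 and 39.7 CPM.

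States present mainly in 1 arm also carried Apoe. The Magi2-led state (309 cells in vehicle after depletion and 4 in the library labelled tamoxifen) was at 1841 CPM of Apoe and 654 CPM of Apoc1, and the Ecrg4-led state (71 and 1 cells) at 1328 CPM of Apoe and 93.8 CPM of Apoa1. The Plppr1-led state (5 and 324 cells) was at 80.0 CPM of Apoe and 371 CPM of Apoc1 in the library labelled tamoxifen. The Gm36975-led state (31 and 180 cells) was at 285 CPM of Apoe there.

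Within a library the genes were spread unevenly over cells. The 10% of epithelial-like cells with the most Apoe held 78.6% and 74.1% of its UMIs in vehicle and 68.8% and 80.8% in the libraries labelled tamoxifen, with single cells reaching 1633 UMIs and medians of 0 to 2. The same top share of cells for Apoa1 held at least 96.4% of its UMIs in all 4 libraries. Apoc1 was the most even, with 42.1% to 52.7%.

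Which genes occurred in the same cells was read after thinning to 2000 UMIs. After depletion 87.8% of vehicle cells with an Apoa1 UMI also had an Apoe UMI, when 38.3% of all cells had one, and in the library labelled tamoxifen 33.8% did, when 20.2% of all cells had one. Of cells with Apoc1, 58.1% had Apoe in vehicle and 31.9% in the library labelled tamoxifen. Of the 278 vehicle cells with Apoa1, 26 (9.35%) had Apob, and of 148 such cells labelled tamoxifen, 5 (3.38%) did. Over all cells 3.28% (vehicle) and 3.60% (labelled tamoxifen) had an Apob UMI, so that Apob was more frequent among Apoa1 cells than over all cells in vehicle and was not in the other library.

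Of the macrophage classes only C1q macrophage-like cells stood above every other class in Apoe, as given above. Tumour-bearing lung holds alveolar macrophages, which clear surfactant lipid from the airspace, and macrophages of the interstitium and tumour marked by C1q. Between those 2 classes before depletion, Apoe and Apoc2 were higher in C1q macrophage-like cells in both libraries and the third member tested, Clu, was not called, against 8.26% of 8387 genes tested called higher, 6.96% called lower and 15.2% called in either direction. Apoe was 9.19-fold higher in vehicle and 19.3-fold higher in the library labelled tamoxifen (12228 against 1329.9 CPM, and 17955 against 928 CPM). These folds depended on a Top2a-led alveolar cluster described below, without which the alveolar level was 277 and 233 CPM. Over the settings run, the Apoe log2 ratios reached 5.46 and 6.26, against 3.20 and 4.27 in the main setting. Apoc2 was 7.28-fold and 9.98-fold higher (63.0 against 8.65 CPM, and 81.4 against 8.16 CPM).

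Both classes were mixtures with regard to Apoe. Among C1q macrophage-like cells, a cluster led by Ms4a7 and Ccl12 (323 and 257 cells) was at 37311 and 43377 CPM of Apoe and held 71.5% and 71.4% of the class's Apoe UMIs. The cluster led by Mgl2 (910 and 508 cells) was at 4549 and 7298 CPM. Apoc2 was at 102 and 126.5 CPM in the first and at 51.0 and 62.4 CPM in the second. The summed level of the 5 C1q markers, among which Apoe is not, was 13993 and 14506 CPM in the Ms4a7-led cluster and 3936 and 5426 CPM in the Mgl2-led cluster. Against clusters of other classes, C1qa, C1qb and C1qc were among the leading genes of the Mgl2-led cluster. Against all other cells its leading genes included Cd209a and Ccr2, listed as markers of dendritic cells and classical monocytes.

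Alveolar macrophage-like cells drew most of their Apoe from a cycling cluster. The Top2a-led cluster was 9.74% of the class in vehicle and 6.72% in the library labelled tamoxifen, held 83.7% and 78.4% of its Apoe UMIs and was at 5081 and 5327 CPM. Its C1q marker sum was 4144 and 4189 CPM and its alveolar macrophage marker sum 2813 and 3798 CPM, so that both marker sets were present. Without it the class was at 277 and 233 CPM of Apoe and 4.35 and 5.04 CPM of Apoc2. Its larger clusters were at 102 and 138 CPM (led by Chil3) and 433 and 289 CPM (led by Ear10), of which the former was under the level of T cell-like cells in both libraries (117 and 206 CPM).

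**Figure D5:**
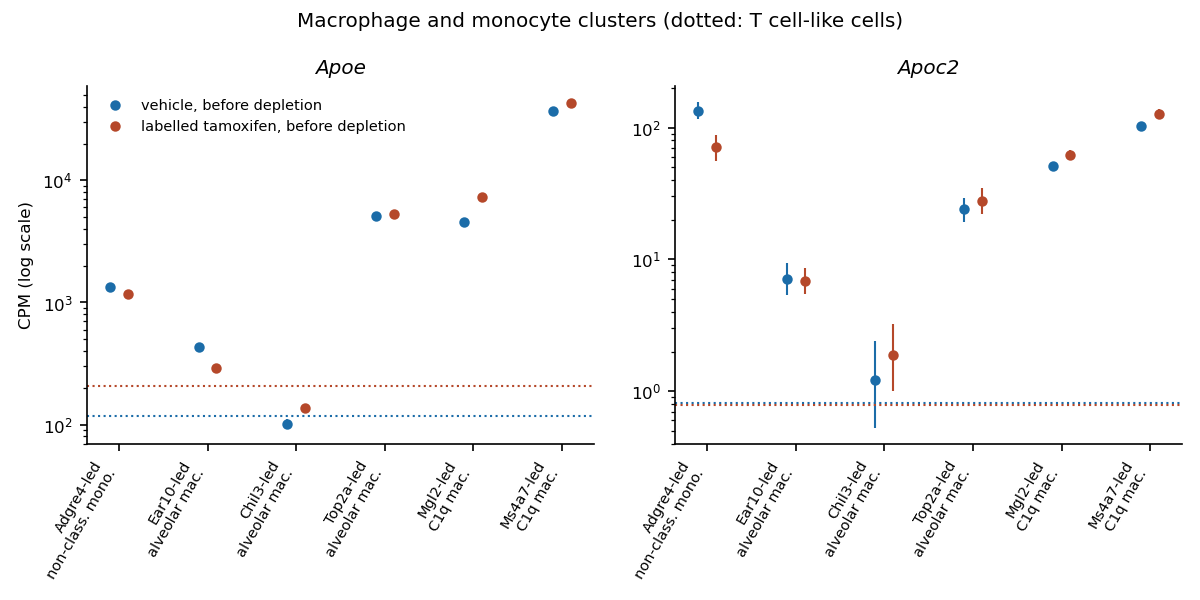
Level of Apoe (left) and Apoc2 (right) in 6 monocyte and macrophage clusters before depletion (CPM, log axis), vehicle in blue and labelled tamoxifen in red, with 95% counting intervals. Dotted lines give T cell-like cells of the same library. Apoe ranges from 102 CPM in the Chil3-led cluster to 43377 CPM in the Ms4a7-led cluster.

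Compared with epithelial-like cells of the same libraries, alveolar macrophage-like cells were lower in Apoa1, Apob, Apoc1 and Clu, 4 of the 5 members tested, with none higher, against 23.7% of 9894 genes tested called lower, 16.9% called higher and 40.7% called in either direction. Scaling moved that balance over all genes: with library factors from trimmed means (TMM) 2183 genes were called higher and 1899 lower, where plain CPM gave 1675 and 2349, and the log2 ratios of Apoe moved by 0.34 and 0.33. The 4 calls held under it. Clu was at 18.0 and 33.2 CPM in alveolar macrophage-like cells against 2549 and 3030.4 CPM in epithelial-like cells, and Apoc1 at 3.85 and 3.34 CPM against 369 and 261 CPM. Apob gave 1 and 3 UMIs in alveolar macrophage-like cells. Apoe was not called, at 1.54-fold and 3.36-fold higher in alveolar macrophage-like cells. Without the Top2a-led cluster its direction turned, with 277 against 862 CPM in vehicle and 233 against 276 CPM in the library labelled tamoxifen.

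Between the arms, no member was called in either macrophage class. In C1q macrophage-like cells 3 members were tested and 0.691% of 8104 genes were called (0.308% higher and 0.383% lower). Apoe was 1.47-fold higher in the library labelled tamoxifen (1.46 to 1.48) and Apoc2 1.29-fold higher (1.19 to 1.40), the opposite direction to epithelial-like cells. Within clusters the Apoe fold was 1.16 in the Ms4a7-led and 1.60 in the Mgl2-led cluster, and the Ms4a7-led cluster was 26.2% of the class in vehicle and 33.6% in the library labelled tamoxifen. Of C1q macrophage-like cells thinned to 2000 UMIs, 64.6% and 77.4% had an Apoe UMI (86.0% and 92.2% unthinned).

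In alveolar macrophage-like cells 2 members were tested and 0.889% of 8210 genes were called (0.146% higher and 0.743% lower). Apoe was 1.43-fold lower in the library labelled tamoxifen (1329.9 and 928 CPM), but the share of thinned cells with a UMI was 22.4% and 23.0%, and the Top2a-led cluster, with 5081 and 5327 CPM, was a smaller part of the class there. Clu was 1.84-fold higher (18.0 and 33.2 CPM, 1.61 to 2.11), and T cell-like cells showed the same direction (46.9 and 106 CPM). Clu in alveolar macrophage-like cells lay below those T cell-like values, most of which came from few cells (at least 90.6% of UMIs in the top 10%).

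The partners of these genes were followed with 4 lists: other apolipoproteins, lipoprotein receptors, genes of lipid loading, transfer and hydrolysis, and known regulators of apolipoprotein genes. In epithelial-like cells between the arms none of the 2, 14, 12 and 13 list members tested was called in either direction. Cd36, a scavenger receptor for modified lipoproteins and fatty acids, was at 422 and 438 CPM before depletion. Lrp2 (megalin), an endocytic receptor that takes up Apoe and Clu, was at 154 and 152 CPM, and Npc2, which moves cholesterol out of lysosomes, at 3741 and 3580 CPM. Of the regulators, Cebpa was at 166 and 146 CPM and Foxa2 at 74.4 and 87.7 CPM. Of the state lists, 3 of 4 tested liver-type genes and 3 of 8 tested gastric or intestinal genes were called lower, beside 0.94% of all genes tested.

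The lists were also read between alveolar macrophage-like and epithelial-like cells, where 16.9% of all genes tested were called higher and 23.7% lower. Of 18 receptors tested 6 were higher, among them Olr1 (437 against 1.82 CPM in vehicle and 493.5 against 1.54 CPM in the library labelled tamoxifen), Msr1 (120.2 against 0.61 CPM and 125 against 0.76 CPM) and Trem2 (131 against 7.36 CPM in vehicle), and 5 were lower, among them Lrp2, Vldlr and Cd36. Of 14 lipid handling genes 7 were higher, among them Abcg1 (537 against 2.42 CPM in vehicle), which exports cholesterol to lipoproteins, and Lpl (1005 against 9.55 CPM), the lipase that Apoc2 activates, and 1, Npc2, was lower. Of 14 regulators 3 were higher, Pparg among them, and 7 were lower, including Hnf4a, Foxa1 and Foxa2. Medians of the receptor, lipid handling and regulator lists were 0.61, 1.17 and -1.08 on the log2 scale in vehicle, beside -0.17 for all genes tested.

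Between C1q macrophage-like and alveolar macrophage-like cells 8.26% of all genes tested were called higher and 6.96% lower. Relative to alveolar macrophage-like cells, Abca1, which loads lipid onto apolipoproteins, was at 262 against 73.0 CPM in vehicle and 296 against 64.1 CPM in the library labelled tamoxifen, and Pltp, a phospholipid transfer protein, at 77.8 against 24.0 CPM and 77.8 against 20.8 CPM. These 2 of 14 lipid handling genes were higher, and 5 were lower, among them Lpl (125 against 1005 CPM) and Abcg1 (72.9 against 537 CPM). Of 17 receptors 3 were higher (Stab1 and Sorl1 among them) and 4 lower (Sort1, Marco, Olr1 and Cd36). Of 8 regulators 1 was higher and 3 were lower in both libraries, the latter being Pparg (6.98 against 240.3 CPM), Nr1h3 (5.57 against 34.0 CPM) and Rxra (25.7 against 83.6 CPM). Nr1h3 codes LXR alpha, a known activator of Apoe. Saa3, an acute-phase apolipoprotein, was higher than in alveolar macrophage-like cells and was the only member of these 4 lists called between the arms in the C1q class, at 113 CPM in vehicle and 14.1 CPM in the library labelled tamoxifen.

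The genes with the most similar pattern were found by Pearson's r of log2(CPM + 1). Over 12 classes in 2 libraries (24 points that share libraries and depth, 13418 genes), Apoe came closest to Ocstamp (0.83), Slc13a3 (0.81) and Fcrls (0.79), and Apoc2 to Clec4a1 (0.84), F13a1 (0.84) and Gm35154 (0.84). Apoc1 came closest to Mal2 (0.95), Apoa1 to Wnk4 (0.95), Apob to Nlrp4e (0.93) and Clu to Smim22 (0.93). Over the 7 epithelial states in the 2 libraries after depletion (14 points, 10736 genes), Apoa1 came closest to Alb (0.95), Apoe to Cluh (0.92) with Rbp4 next (0.91), Apoc1 to Klk13 (0.98), Apoc2 to Otc (0.89), Apom to Opa3 (0.97), Apob to Smyd3 (0.94) and Clu to Ctse (0.97). The values describe these points only.

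Depletion itself changed no member past the 2-fold size rule in epithelial-like cells: 0 of 5 tested members were called after against before depletion, and 0.124% of 8871 genes tested were (0.0225% higher and 0.101% lower). The shift was widest for Apoa1 and Apoe in vehicle, 1.47-fold (40.9 to 60.3 CPM) and 1.43-fold (862 to 1236 CPM) higher after depletion. In the libraries labelled tamoxifen Apoe was 1.19-fold higher after depletion (276 to 329 CPM) and Apoa1 1.16-fold lower.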

How the data were processed

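Single cells of mouse lung tumours were profiled in 4 libraries with 10x Genomics 3′ version 3 chemistry. The deposited values are counts: UMIs per gene and cell in the authors' filtered matrices. Cell Ranger 7.2.0 and build mm10 are named in the submitters' processing notes, while the deposited file header names version 7.0.1. UMIs are deduplicated molecules, so intervals cover counting error only.

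Barcodes under 200 genes or above 20% mitochondrial UMIs were dropped. Automatic doublet calls (Scrublet through scanpy 1.11.5) marked 188, 1, 1 and 0 cells, so cells with a doublet score of 0.25 or more were removed instead (116 to 225 a library). Cells were clustered with the 9 genes left out (2000 variable genes, Leiden resolution 1 for classes and 0.5 for epithelial states), and classes are called "X-like" from listed markers. An epithelial state led by macrophage genes was left out. The members and gene lists were chosen with earlier results of these data known.

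UMIs were summed by library and class and divided by the class total (CPM). Calls used the size rule given above. The rule was checked on simulated counts, with the outcome not reported here. Such counts cannot measure the variation between libraries of a group. Named list genes are those past the size rule, at most 6 by size, and the 3 most abundant. CPM intervals are exact Poisson, shares exact binomial (Clopper-Pearson), and folds conditional binomial, all at 95%, with a floor of 3 counts for a count of 0. Folds are CPM ratios without the pseudocount. Alternatives were other scaling (TMM, median of ratios), pseudocounts, filters, thresholds, doublet handling and clusterings. Some results for listed genes are not reported here.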

Additional observations from a re-analysis of the deposited data

Results flagged for a closer look

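Apoe and Apoc2 were 1.47-fold and 1.29-fold higher in C1q macrophage-like cells of the library labelled tamoxifen than in vehicle before depletion, and lower in epithelial-like cells of both pairs, so the arms went in opposite directions in the 2 cell classes. Clu was 1.29-fold lower in those macrophages and higher in epithelial-like cells of both pairs. A single vehicle cell of the C1q class held 259 Clu UMIs, and the highest such cell labelled tamoxifen held 31. By cluster, Clu was 1.56-fold lower in the Mgl2-led cluster (1.32 to 1.83) and 1.38-fold higher in the Ms4a7-led cluster (1.05 to 1.80). With each cell weighted equally the Clu ratio in the macrophages turned to 0.57 on the log2 scale. The differences between classes were not tested.

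A cluster that received no class name, led by Clu, Krt18 and S100a14, enters none of the comparisons. Its cells were shallow, with a median depth of 0.168 times the library median, which left it unnamed. Its Clu level was 30959 CPM in the library labelled tamoxifen before depletion (24 cells) against 2164 CPM in vehicle (69 cells), and 12394.5 CPM after depletion (52 cells) against 7749 CPM (74 cells). Median UMIs a cell were unlike, at 6460 against 1561 before depletion and 4936.5 against 1243 after it. With each cell weighted equally Clu was at 16915 against 2720 CPM before depletion and 16966 against 8269 CPM after it.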

How the results depend on the processing

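Among the calls between classes and arms no direction changed under the alternatives run, and calls were lost for Apoe and Apoc2 alone. In epithelial-like cells between the arms, Apoe passed 2-fold but not 4-fold (log2 ratio -1.64 and -1.91), Apoc2 missed the 10 CPM minimum with each cell weighted equally (-2.91 and -2.61) and with cells gated by their own markers (-3.67 and -2.70), and Apom passed once the minimum was dropped (-1.38 and -1.39). Counts over all genes moved past 1.5 times as follows. Without the CPM minimum, 220 against 120 genes were called in epithelial-like cells between the arms, 151 against 73 in alveolar and 134 against 56 in C1q macrophage-like cells, 6121 against 4024 between alveolar macrophage-like and epithelial-like cells, and 79 against 11 after over before depletion. At 4-fold these counts were 13, 6, 12, 2366 and 6, and 391 against 1277 between the macrophage classes. Weighting cells equally gave 44 in alveolar macrophage-like cells and 17 after over before depletion, where keeping doublets gave 48. Chosen after seeing the data, adding the macrophage-led epithelial state gave 35 and the unnamed clusters with epithelial markers 22 in that comparison, and leaving out the Top2a-led cluster gave 36 in alveolar macrophage-like cells. The cause was not tested. No paired analysis was possible because each group is 1 library, which leaves no replicate to block on; the libraries before and after depletion of an arm were set side by side as ratios, with no test. Apob between the arms in epithelial-like cells was of either sign (3 and 2 of 13 settings gave the other sign). Apoa2, Apoh and Apom stayed under the 10 CPM minimum in epithelial-like cells of all 4 libraries and so were not among the members tested there.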
